A study of Caenorhabditis elegans with 45 samples.

Results

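The 9 genes followed here act in secondary small RNA amplification in Caenorhabditis elegans: mut-2, mut-7, mut-14, mut-15, mut-16, rde-2, rde-8, ego-1 and rrf-1. They were chosen by name, for their place in one pathway, and make up 9 of the 18589 genes in the deposited table of normalized counts. The series compared gene expression of wild strains and of the laboratory strain during RNA interference (RNAi), a response known to differ between isolates. It holds 45 RNA-seq libraries of whole hermaphrodites on day 1 of adulthood, from 5 strains under 3 treatments, with 3 libraries in each of the 15 groups. The strains were the wild isolates QX1211, JU1088, EG4348 and CB4856 and the laboratory strain N2. Worms were fed HT115 bacteria that carried a par-1 dsRNA construct, a pos-1 dsRNA construct, or the empty vector pL4440 as the control. Each library came from a pool of 2 plates, so the spread within a group is that between pools of plates of one strain. QX1211 stocks were kept at 18 °C and the other strains at 20 °C, and wild strains were grown on plates with agarose. Strain and the earlier culture conditions therefore cannot be told apart for QX1211.

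In nematodes, a primary small RNA made from double-stranded RNA marks a matching mRNA, and RNA-dependent RNA polymerases then copy that mRNA into many secondary small RNAs, which amplify the silencing signal. Much of this takes place in Mutator foci, perinuclear condensates beside the P granules of germ cells. MUT-16, rich in glutamine and asparagine, is their scaffold. RDE-8 is an endoribonuclease that cuts the target, and MUT-2 is a nucleotidyltransferase that adds poly(UG) tails to the cut RNA, which makes it a template. MUT-7 resembles exonucleases, RDE-2 is its binding partner, MUT-14 is a DEAD-box RNA helicase, and MUT-15 is a further protein of the complex. EGO-1 is the main RNA-dependent RNA polymerase of the germline, and RRF-1 is the related enzyme known for its action in the soma.

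By the annotation of assembly WBcel235, 5 of the 9 genes lie on chromosome I: mut-2 (WBGene00003499, I:6356614-6358411, minus strand), rde-2 (WBGene00004324, I:7280466-7282924, minus), rrf-1 (WBGene00004508, I:7643431-7649777, minus), ego-1 (WBGene00001214, I:7650341-7656338, minus) and mut-16 (WBGene00003508, I:10080159-10085765, plus). The others are mut-7 (WBGene00003504, III:9539031-9542380, minus), rde-8 (WBGene00022620, IV:7101379-7103261, minus), mut-14 (WBGene00003507, V:5658713-5660704, minus) and mut-15 (WBGene00011323, V:15002543-15005067, plus). The genes rrf-1 and ego-1 are neighbors on one strand, 563 bases apart. The end of mut-2 overlaps bli-4 on the opposite strand, and the end of rde-2 overlaps hint-1 on its own strand.

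Libraries held between 4269033 and 17865356 estimated reads, with a median of 7478891. All 45 pairs of replicates differed by more than sampling noise, with a chi-square per gene between 1.65 and 47.4. Reads for the targeted gene pos-1 fell under pos-1 RNAi in JU1088 (log2 fold change -3.59), N2 (-2.57) and EG4348 (-1.23), while the values were -0.13 in QX1211 and -0.05 in CB4856, neither of which passed the test. The par-1 mRNA was not called under par-1 RNAi in any strain, with values between -0.18 and 0.24, so its level does not check those labels.

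A set of 3 libraries stood apart, and these were also the only ones whose labels state one and the same mean and spread of fragment length. They were replicate 2 of JU1088 on pos-1 dsRNA, replicate 3 of CB4856 on par-1 dsRNA and replicate 1 of QX1211 on control food. In these 3 libraries mut-16 had 583, 811 and 683 normalized counts, the 3 lowest values of all 45, against 984 to 1429 in the other 42. Each lay below its 2 group mates, by 1.13, 0.57 and 0.72 on the log2 scale. Of 8181 genes with a mean of at least 50 normalized counts, 2.77%, 3.80% and 2.70% were as far below their group mates in the same libraries, so mut-16 was among the genes that moved most. The values of rde-8 went the other way, with 600.0, 538 and 485 normalized counts in these libraries, against 328 to 525 in the other 42. Of the same 8181 genes, 14.5%, 3.03% and 9.85% were as far above their group mates. In the JU1088 and QX1211 libraries the rise of rde-8 was thus less unusual than the fall of mut-16. For some of the calls and values below that changed without these libraries, the value without them is also given.

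**Figure D1:**
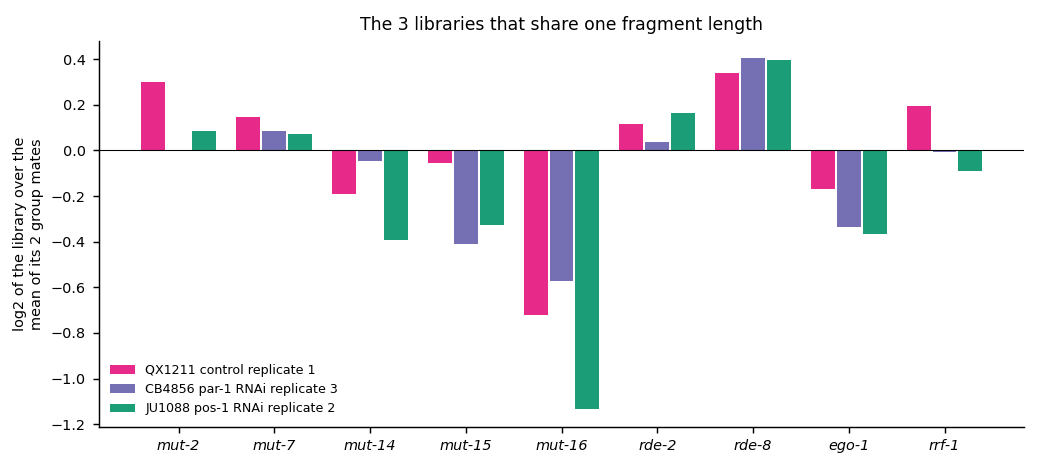
Log2 ratio of each of the 3 libraries with one stated fragment length to the mean of the other 2 libraries of its group (y axis), for the 9 genes (x axis). In all 3 libraries mut-16 lay below its group mates, by between 0.57 and 1.13, and rde-8 above them, while mut-7 and mut-2 lay at or above 0.

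All 9 genes were measured in every library at moderate levels. In TPM, an abundance scaled to transcript length and to the library total, their medians lay between the 70.8 and the 91.1 percentile of genes. The endoribonuclease gene rde-8 was highest, with a median of 97.5 TPM over the 45 libraries and a range of 76.8 to 139.1. It exceeded mut-2 (median 77.4 TPM, 63.5 to 98.5) in all 45 libraries, and mut-2 exceeded rde-2 (56.7 TPM, 43.0 to 65.5) in all 45. These 3 neighbors in the order were thus apart in each library. The scaffold gene mut-16 followed with 47.1 TPM (23.6 to 55.6), below rde-2 in 41 libraries and above mut-7 (39.2 TPM, 28.3 to 45.1) in 40. The place of mut-14 (34.6 TPM, 22.7 to 69.3) depended on the strain. In all 9 QX1211 libraries it was above rde-2, mut-16, mut-7 and ego-1. In the 36 libraries of the other strains it was above rde-2 in 0, above mut-16 in 1, above mut-7 in 1 and above ego-1 in 17, so in those strains mut-14 and ego-1 did not differ beyond the spread between libraries. The germline polymerase ego-1 (33.1 TPM, 26.2 to 40.7) was above rrf-1 (27.5 TPM, 22.7 to 31.7) in 43 libraries, and rrf-1 above mut-15 (24.3 TPM, 19.2 to 31.5) in 43. In whole worms a change in the number of cells that express a gene and a change in RNA per cell cannot be told apart.

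The genes differed in what their variation followed. Of the total sum of squares of the log2 normalized counts, strain took 82.4% for mut-14, 68.7% for rde-2 and 58.7% for mut-7. Treatment took its largest shares for ego-1 (30.4%) and mut-7 (30.3%). For mut-16, in contrast, 64.8% lay between replicates of one group, with a within-group SD of 0.24 on the log2 scale. Without the 3 libraries above, that share was 47.5% and the SD 0.11.

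**Figure D2:**
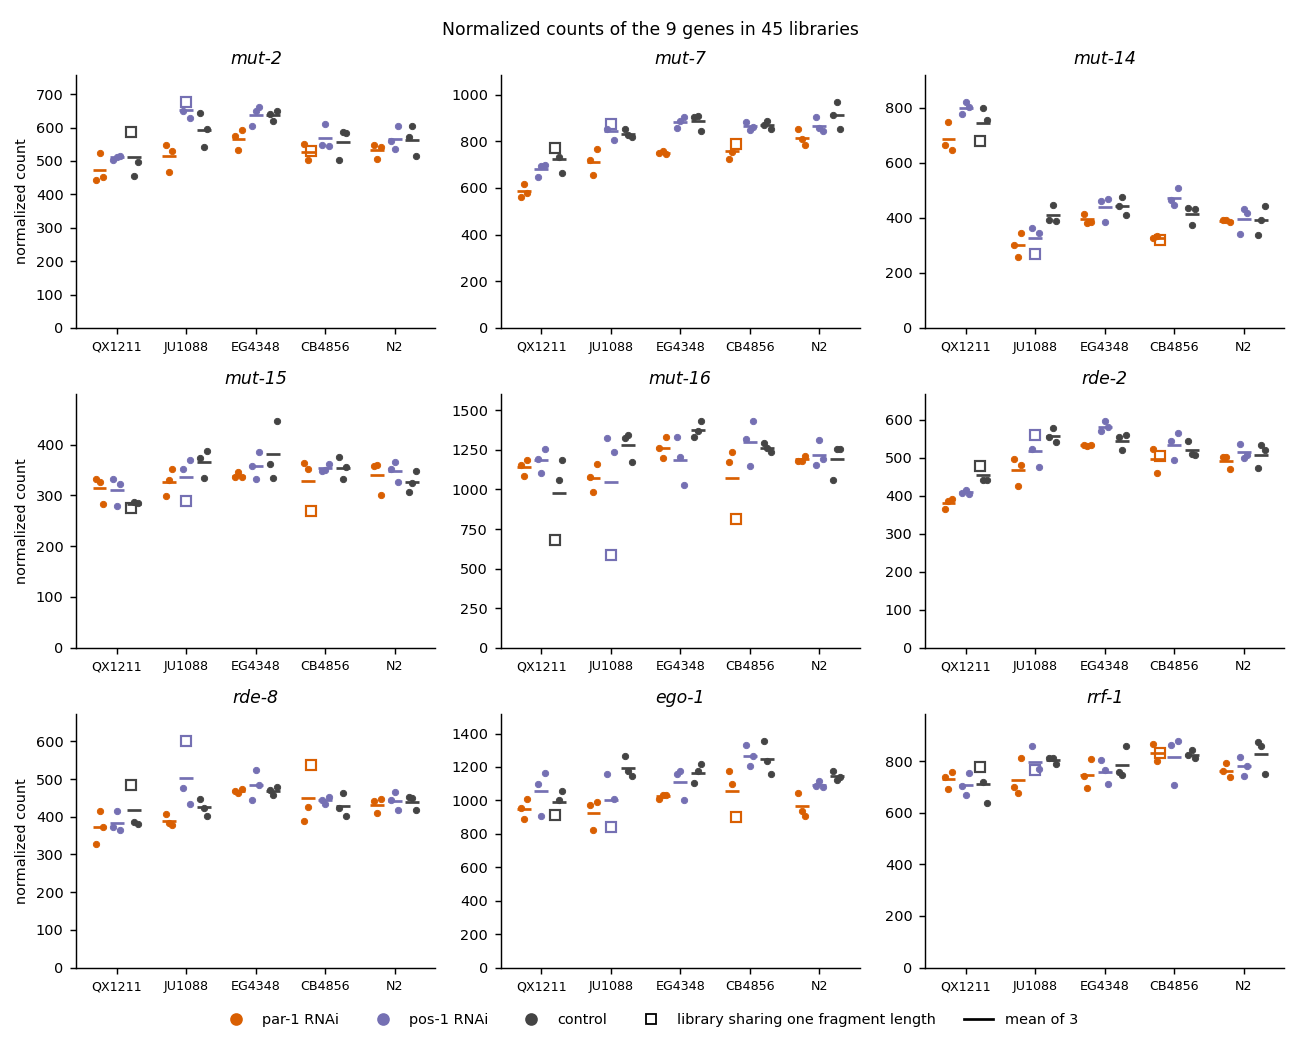
Normalized counts (y axis, 1 panel for each of the 9 genes) in the 45 libraries, by strain (x axis) and treatment (color). Points are libraries and bars are group means. The 9 QX1211 libraries of mut-14 sit between 647 and 822, above all libraries of the other strains, and the 3 low points of mut-16 are the libraries that share a fragment length.

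The first question was whether the strains differ in these genes. A test for any difference between the 5 strains (edgeR quasi-likelihood test, adjusted over all genes, called at an adjusted p under 0.1) called 6 of the 9 genes in the control libraries, where it called 35.1% of all genes tested. These were mut-14 (adjusted p = 2.66e-05), mut-7 (0.0151), ego-1 (0.0224), mut-15 (0.0296), rde-2 (0.0446) and mut-16 (0.0774). Under par-1 RNAi 4 of 9 were called, mut-14 (3.64e-07), mut-7 (6.59e-04), rde-2 (0.00106) and rde-8 (0.0799), against 48.4% of all genes. Under pos-1 RNAi 5 of 9 were called, mut-14 (1.02e-05), mut-7 (0.00314), rde-2 (0.0035), mut-2 (0.0105) and rde-8 (0.091), against 33.8%. The helicase gene mut-14 and the partners mut-7 and rde-2 were called in all 3 treatments, whose libraries do not overlap. The share of members called under par-1 RNAi was close to that of all genes. A stricter filter on low counts raised the shares over all genes. With it, 5031 of 12044 genes were called in the control, 7296 of 12370 under par-1 RNAi and 5066 of 12156 under pos-1 RNAi.

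Several of these calls rested on few libraries. Without QX1211 control replicate 1, which is among the 3 libraries that stood apart, the control calls of mut-16, ego-1 (adjusted p = 0.112) and mut-15 (0.105) were lost. That of mut-2 (0.0485) was gained. The control call of rde-2 was lost without QX1211 control replicate 2 or replicate 3 (adjusted p up to 0.122). Under par-1 RNAi, mut-16 and ego-1 were called once CB4856 par-1 RNAi replicate 3, another of the 3 libraries, was left out. The call of mut-16 was lost in 9 of 15 fits that each left out 1 library, and those of rde-8 in 8 of 15 under par-1 RNAi and in 11 of 15 under pos-1 RNAi. In contrast, mut-14 and mut-7 were called in every one of these fits in all 3 treatments.

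The differences lay mainly between QX1211 and the other strains. In the control, 23 of 36 tests of the 9 genes in the 4 pairs with QX1211 passed, where 22.8% of all such gene tests did. In the 6 pairs without QX1211, 0 of 54 passed, with 1 at an unadjusted p under 0.05 and 0 by DESeq2, where 9.14% of all gene tests passed. Thus none of the 9 genes was called between JU1088, EG4348, CB4856 and N2 on control food. Without the 3 libraries the counts were 22 of 36 and 0 of 54. Under par-1 RNAi 16 of 36 tests with QX1211 passed (30.2% over all genes) and 4 of 54 without it (15.5%). Under pos-1 RNAi the counts were 16 of 36 (19.6%) and 3 of 54 (10.1%). Of these 7 tests without QX1211, 6 were of mut-14 and 1 of ego-1, and 5 had JU1088 on the lower side. For mut-14 the log2 difference of JU1088 from EG4348 under par-1 RNAi was -0.40 (adjusted p = 0.0117) and from N2 -0.38 (0.0248). Without the 3 libraries that stood apart, 6 of 54 tests without QX1211 passed under par-1 RNAi, of mut-14, mut-16, mut-7, rde-2 and rde-8. Under pos-1 RNAi 1 of 54 did, a test of mut-14. In the pairs with QX1211 the count was then 17 of 36 under each RNAi treatment. On all libraries, DESeq2 called 5 of 54 tests without QX1211 under par-1 RNAi, of mut-14 and mut-7. Under pos-1 RNAi DESeq2 called 4 of 54, of ego-1, mut-14 and mut-2.

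The DEAD-box helicase gene mut-14 was the one member that was higher in QX1211. In this strain it had 664, 747 and 647 normalized counts under par-1 RNAi, 776, 822 and 804 with pos-1 RNAi, and 680.3, 799 and 756 in the control. In N2 the values were 393, 393 and 384 under par-1 RNAi, 343, 431 and 417 with pos-1 RNAi, and 339, 391 and 443 in the control. All 9 QX1211 libraries, from 647 to 822, were above all 36 libraries of the other strains, from 258 to 510.1, and the ratio of the means was 1.90. The share of all genes in which QX1211 is so separated was not counted, here and for the members below. In the control, the log2 fold change of QX1211 over N2 was 0.92 (SE 0.11, adjusted p = 2.08e-05), over JU1088 0.86 (SE 0.11, 5.46e-05), over CB4856 0.84 (SE 0.11, 5.59e-05) and over EG4348 0.72 (SE 0.11, 1.89e-04). These 4 pairs share the QX1211 libraries. The pairs with JU1088, EG4348, CB4856 and N2 called 21%, 29.5%, 19.5% and 21.1% of all genes. Against N2, mut-14 was also higher under par-1 RNAi (0.79, adjusted p = 1.19e-05, where 35.5% of all genes were called) and under pos-1 RNAi (1.02, 3.61e-05, 17.1%).

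The paralog smut-1, a second DEAD-box helicase gene of the Mutator pathway, was not called by strain. The adjusted p of its strain test was 0.212 for par-1 RNAi, 0.534 for pos-1 RNAi and 0.842 for the control. Its level in QX1211 ranged from 60.0 to 88.2 TPM with a median of 68.0, against 58.4 to 81.0 with a median of 63.9 in N2, so the strains overlapped. Summed over both paralogs, QX1211 had 118 to 147 TPM (median 135), against medians of 98.1 to 103.7 TPM in the other 4 strains. The sums of JU1088 reached 124.7 TPM and so overlapped those of QX1211.

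**Figure D3:**
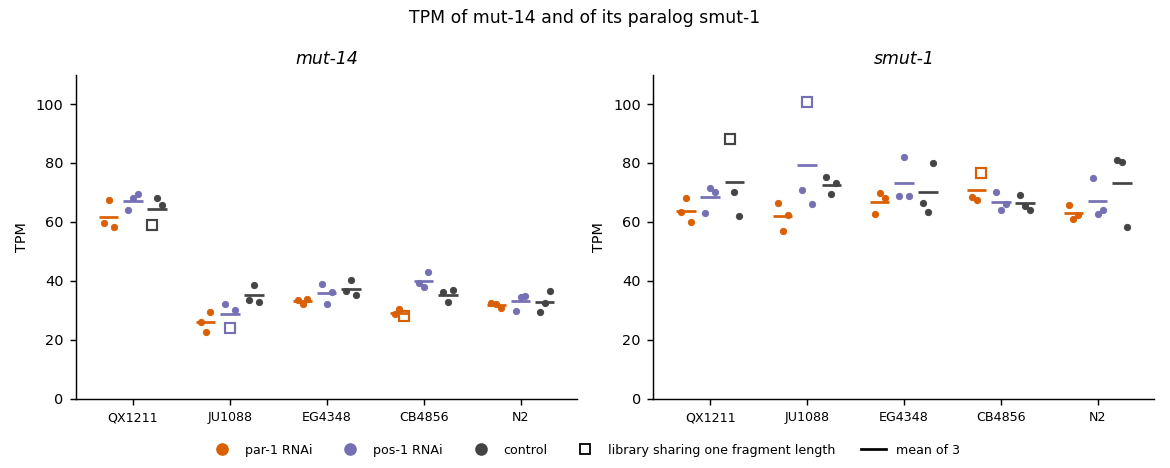
TPM (y axis) of mut-14 and of its paralog smut-1 in the 45 libraries by strain (x axis) and treatment (color), with group means as bars. QX1211 libraries stand above those of the other strains for mut-14 (58.4 to 69.3 TPM) but not for smut-1 (60.0 to 88.2 TPM in QX1211).

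The exonuclease-like gene mut-7 and its partner rde-2 were lower in QX1211. For mut-7, QX1211 had 563, 616 and 579 normalized counts under par-1 RNAi, 647, 696 and 697 with pos-1 RNAi, and 772, 731 and 664 in the control. N2 had 854, 808 and 786 under par-1 RNAi, 903, 858 and 843 with pos-1 RNAi, and 913, 969.8 and 853 in the control. Within each treatment the 3 QX1211 libraries were below all 12 of the other strains, a separation not counted over all genes. The log2 fold change of QX1211 over N2 was -0.50 under par-1 RNAi (adjusted p = 1.03e-04), -0.36 under pos-1 RNAi (0.00254) and -0.34 in the control (SE 0.07, 0.00442). Against the other wild strains in the control it was -0.31 for EG4348 (0.0061), -0.27 for CB4856 (0.0209) and -0.21 for JU1088 (0.0775). The call against JU1088 was lost in 10 of 15 fits without 1 library.

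For rde-2, QX1211 had 364, 385 and 391 normalized counts under par-1 RNAi, 408, 414 and 405 with pos-1 RNAi, and 478, 441 and 441 in the control. N2 had 503, 501 and 469.5 under par-1 RNAi, 536, 499.6 and 507 with pos-1 RNAi, and 473, 532 and 519 in the control. Under each RNAi treatment the QX1211 libraries were below all 12 others, while in the control they overlapped N2 at one library. The difference from N2 was -0.39 under par-1 RNAi (log2, adjusted p = 0.00163) and -0.33 under pos-1 RNAi (0.0155). In the control it was -0.17 (0.16) and did not pass, whereas the differences from JU1088 (-0.30, 0.0158) and EG4348 (-0.28, 0.0149) did.

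Another 4 genes were lower in QX1211 than in some of the other strains. For mut-15, QX1211 control libraries had 275, 286 and 285 normalized counts, below all 12 others at 308 to 446. The log2 difference was -0.45 against EG4348 (adjusted p = 0.00603), -0.38 against JU1088 (0.0251) and -0.34 against CB4856 (0.0416), and -0.22 against N2 (0.185), which did not pass. The mut-15 call against JU1088 was lost without JU1088 control replicate 3 (0.103), and that against CB4856 without QX1211 control replicate 1 or CB4856 control replicate 1. The germline polymerase gene ego-1 had 915, 1002 and 1058 normalized counts in QX1211 control libraries, against 1107 to 1354 in the 12 others, with no overlap. Its log2 difference was -0.34 against CB4856 (0.00509), -0.27 against JU1088 (0.0216), -0.26 against EG4348 (0.0213) and -0.22 against N2 (0.0596). Without QX1211 control replicate 1, ego-1 was no longer called against JU1088 (0.101), EG4348 (0.115) or N2. The call against N2 was lost in 4 of 15 fits without 1 library (adjusted p up to 0.220), and that against CB4856 in 0 of 15. For mut-2, which encodes the nucleotidyltransferase, the one call in the control was against EG4348 (-0.33, 0.0338), and it was lost without QX1211 control replicate 2 (0.12). Under pos-1 RNAi mut-2 had 504, 513 and 516 normalized counts in QX1211, below all 12 libraries of the other strains at 535 to 678, with a log2 difference of -0.36 against JU1088 (0.00449) and -0.34 against EG4348 (0.00707). For rrf-1 the calls were against CB4856 (-0.22, 0.0975) and N2 (-0.22, 0.0873), which were lost in 11 and 10 of 15 fits without 1 library.

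The scaffold gene mut-16 showed how one library can carry a value. Its QX1211 control libraries had 683, 1062 and 1189 normalized counts, and replicate 1 is among the 3 libraries that stood apart. With it, the log2 difference was -0.53 against EG4348 (adjusted p = 0.0135), -0.41 against JU1088 (0.068) and -0.39 against CB4856 (0.0824). Without that library the difference from EG4348 was -0.30 (0.031) and still passed, whereas those from JU1088 (-0.19, 0.215) and CB4856 (-0.17, 0.278) did not. The endoribonuclease gene rde-8 was not called between QX1211 and another strain in the control (adjusted p = 0.205 to 0.945), but was called against EG4348 without QX1211 control replicate 1 (0.0251).

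**Figure D4:**
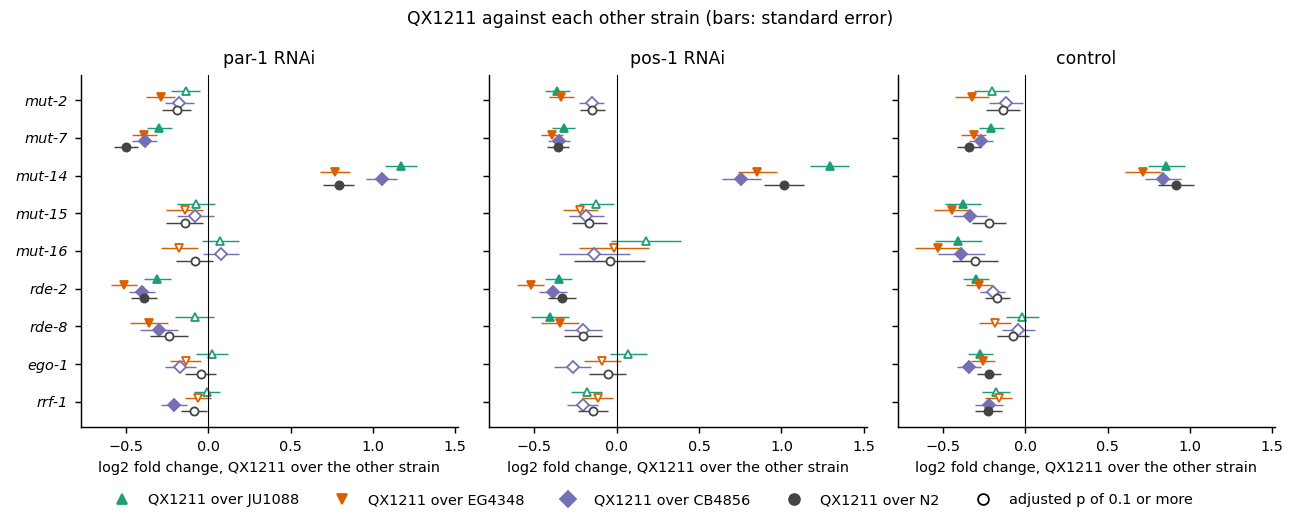
Log2 fold change of QX1211 over each other strain (x axis, bars show the standard error) for the 9 genes (y axis), in 1 panel for each treatment. Estimates for mut-14 lie right of 0 in every panel, at 0.92 against N2 in the control, and those for mut-7 lie left of 0, at -0.34.

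Levels of germline genes also differed between the strains. The summed level of 10 germline and oocyte markers was 1770 to 2314 TPM in QX1211 (median 2075), against 2136 to 2428 in N2 (median 2227) and medians of 2316, 2317 and 2371 in JU1088, CB4856 and EG4348. Between QX1211 and N2 on control food, where 21.1% of all genes were called and 11.5% were called lower, 4 of the 10 were called lower and 1 higher: the germline translational regulator gene gld-1 had a log2 fold change of -0.32 and the oocyte yolk receptor gene rme-2 of -0.27, while the P granule gene pgl-3 had 0.43. Of 6 sperm markers 0 were called by edgeR, and 2 had an unadjusted p under 0.05. The summed level of 3 neuron markers was 292 to 392 TPM in QX1211, against 221 to 296 TPM in N2. Medians in QX1211 and N2 were 170 and 178 TPM for 4 intestine markers, and 445 and 350 for 3 muscle markers. For 3 hypodermis markers they were 654 and 620 TPM, and the ranges of all 3 lists overlapped. The part of these markers in the strain differences was not tested.

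Other genes of the pathway were described from fixed lists. Of 12 Mutator-associated genes, 6 were called lower and 0 higher in QX1211 than in N2 on control food, where 11.5% of all genes were called lower, and all 12 estimates were below 0 with a median of -0.23. They included rsd-6, a Tudor-domain gene (-0.86), nyn-1, an endonuclease-domain gene (-0.68), rde-11 (-0.51) and the helicase gene rde-12 (-0.33). Of 6 further polymerase genes and partners, rrf-2, which encodes an RNA-dependent RNA polymerase, was higher (1.59), rrf-3, the polymerase of one class of endogenous small RNAs, was lower (-0.31), and 4 were not called. Of 9 secondary Argonaute genes tested, whose proteins bind the amplified small RNAs, sago-2 was higher (3.45), and wago-4 (-0.44), ppw-1 (-0.33) and ppw-2 (-0.66) were lower. The median over all genes for this pair was -0.0044.

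The second question was how the genes respond to dsRNA feeding. Averaged over the 5 strains, par-1 RNAi lowered 5 of the 9 genes, where 32.3% of all genes were called and 14.3% were called lower. With a stricter filter on low counts, 5914 of 12994 genes were called in either direction, a larger share. All 9 estimates were below 0, with a median of -0.14, against 0.07 over all genes. Within any one strain, however, no member passed the rule that also asks for more than a 1.5-fold change.

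For mut-7 the average log2 fold change under par-1 RNAi was -0.23 (SE 0.03, adjusted p = 3.29e-07). In JU1088 it had 719.7, 654 and 766 normalized counts under par-1 RNAi, against 854, 826 and 819.8 in the control. In EG4348 it had 752, 757 and 747, against 904, 908 and 843, and in CB4856 726, 756 and 787, against 868, 886 and 853. All 3 treated libraries were below all 3 controls in these strains and in QX1211, whose values are given above. Separation of 3 libraries from 3 can arise from the spread between pools of plates alone. The share of all genes so separated under par-1 RNAi was not counted, here and for ego-1 and mut-14 below. In N2 the highest treated library, 854, overlapped the lowest control, 853.

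For ego-1 the average was -0.23 (SE 0.04, 9.63e-05). It had 969.9, 821 and 989 normalized counts under par-1 RNAi in JU1088, against 1266, 1176 and 1144 in the control. In N2 it had 1046, 938 and 909, against 1177, 1121 and 1139.8. Treated libraries were below the controls in JU1088, EG4348 and N2, and overlapped them in QX1211 and CB4856. For mut-14 the average was -0.22 (SE 0.05, 6.90e-04). Its treated and control libraries were apart in JU1088, with 303, 258 and 346 against 391, 448 and 389, and in CB4856, with 326, 335 and 319.5 against 437, 375 and 433. In N2 the estimate for mut-14 was -0.01. The remaining calls were rde-2 (-0.14, SE 0.03, 0.00146) and mut-2 (-0.14, SE 0.04, 0.00914).

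The other 4 genes did not pass: mut-16 at -0.08 (adjusted p = 0.523), rrf-1 at -0.06 (0.248), rde-8 at -0.06 (0.498) and mut-15 at -0.05 (0.519). Without the 3 libraries that stood apart mut-16 was at -0.09 and was called (0.0989). The 5 calls above were made in each of 45 fits that left out 1 library.

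Within single strains 0 of the 45 tests of par-1 RNAi passed both the adjusted p and the fold threshold by edgeR, and 0 by DESeq2, with 14 at an unadjusted edgeR p under 0.05. Over all genes the same rule called 2.38% for EG4348, 5.15% for QX1211, 8.5% for JU1088, 4.4% for CB4856 and 1.16% for N2. On the adjusted p alone, 9 of the 45 passed, all of them lower. Of these, 4 were in JU1088, where 5.76% of all genes were lower by this rule: mut-14 (-0.44, 0.00958), ego-1 (-0.36, 0.0113), rde-2 (-0.25, 0.0239) and mut-7 (-0.22, 0.031). In QX1211 (3.42% of all genes) they were mut-7 (-0.33, 0.00306) and rde-2 (-0.28, 0.0186), in CB4856 (2.03%) mut-14 (-0.35, 0.0648) and mut-7 (-0.20, 0.0785), and in EG4348 (0.732%) mut-7 (-0.24, 0.0446). In N2 no member passed. All 4 calls in JU1088 were lost without JU1088 par-1 RNAi replicate 2 (adjusted p = 0.144 for mut-14, 0.15 for ego-1, 0.241 for rde-2 and 0.277 for mut-7), and those of mut-14 (0.136) and ego-1 (0.139) also with each strain fitted alone. The call of rde-2 in QX1211 was lost without the 3 libraries that stood apart (-0.23, 0.115), and that of mut-16 in JU1088 was gained (-0.25, 0.0514). Each call in EG4348 and CB4856 was lost in 4 or 5 of 45 fits without 1 library. All these losses came from the 3 par-1 RNAi and 3 control libraries of the strain, the only ones that the comparison contrasts. These calls were thus lost in most of the fits that bear on them, while mut-7 in QX1211 was called in all 45.

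Under pos-1 RNAi no change of the 9 genes was called. Averaged over strains 0 of 9 passed by edgeR, 0 by DESeq2 and 0 at an unadjusted p under 0.05, where 2.55% of all genes were called. The estimates lay between -0.05 for ego-1 and 0.05 for rde-8, with a median of -0.01. Within single strains 0 of 45 passed with the fold threshold by edgeR and 0 by DESeq2, and 4 had an unadjusted p under 0.05. Over all genes it called 0.0646% for EG4348, 0.0807% for QX1211, 8.23% for JU1088, 0.156% for CB4856 and 0.215% for N2. On the adjusted p alone 1 of 45 passed, mut-14 in JU1088, with 364, 270.0 and 345 normalized counts under pos-1 RNAi, against 391, 448 and 389 in the control (-0.32, SE 0.11, 0.0777, where 4.2% of all genes were lower). Replicate 2 is one of the 3 libraries that stood apart, and without those libraries the value was -0.20 (0.501).

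The test of whether the responses differ between strains (8 interaction coefficients at once) called 0 of the 9 genes by edgeR, with 1 at an unadjusted p under 0.05, where 1.29% of all genes were called. DESeq2 called 1, mut-14 (adjusted p = 0.0756), for which edgeR gave 0.236. The other 8 genes had an edgeR adjusted p of 0.587 or more. Although mut-7 passed in 4 strains and not in N2, a difference between those strains and N2 was therefore not shown.

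**Figure D5:**
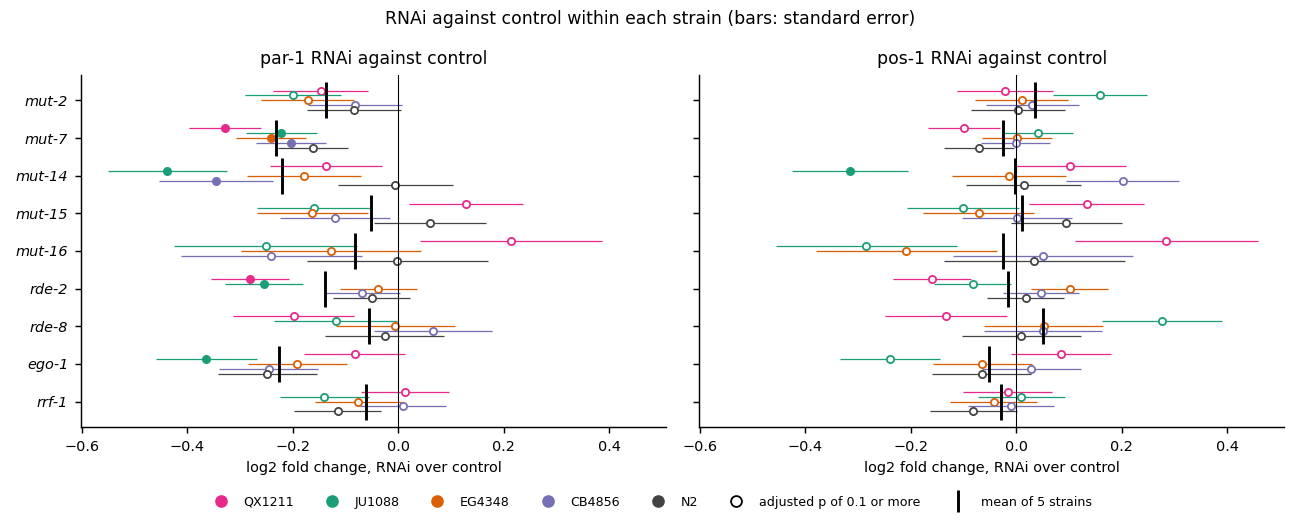
Log2 fold change of RNAi over control within each of the 5 strains (x axis, bars show the standard error, vertical ticks the average over strains) for the 9 genes (y axis), with par-1 RNAi and pos-1 RNAi in separate panels. Averages under par-1 RNAi lie left of 0 for all 9 genes, furthest for mut-7 at -0.23, while those under pos-1 RNAi lie between -0.05 and 0.05.

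Markers of other tissues were read under par-1 RNAi as well. In the average over strains 14.3% of all genes were called lower and 32.3% in either direction. Of the 10 germline and oocyte markers, 8 were lower on average, among them the P granule genes glh-1 (-0.32) and pgl-3 (-0.22), rme-2 (-0.27) and gld-1 (-0.20), and 0 were higher. Their summed level was 1701 to 2298 TPM under par-1 RNAi (median 2082), 1699 to 2527 under pos-1 RNAi (median 2317) and 1948 to 2490 in the control (median 2318). Under pos-1 RNAi 0 of 10 were called by edgeR, where 2.55% of all genes were called, and 1 had an unadjusted p under 0.05. Of 3 neuron markers, the synaptic vesicle gene snb-1 (0.18) and unc-119 (0.22) were called higher on average under par-1 RNAi. The summed level of the 3 was 265 to 392 TPM under par-1 RNAi (median 310.4), 221 to 402 under pos-1 RNAi (median 282) and 217 to 344 in the control (median 273). In JU1088 it was 283 to 326 TPM under par-1 RNAi, against 217 to 248 in the control, and in CB4856 309.7 to 338, against 237 to 286, with no overlap in either strain. For 4 intestine markers the median sum was 186 TPM under par-1 RNAi and 199 in the control. It was 620 and 723 for 3 hypodermis markers, and 455 and 435 for 3 muscle markers, all with overlapping ranges. No direction is therefore read from these 3 lists. For 6 sperm markers the median sum was 14.6 TPM under par-1 RNAi and 13.8 in the control, also with overlapping ranges. The part of these markers in the lower levels of the 9 genes was not tested.

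Other genes of the pathway were also counted in the par-1 RNAi average, where 14.3% of all genes were called lower and 32.3% in either direction. Of 12 Mutator-associated genes 10 were called lower and 0 higher, among them znfx-1, a helicase gene of the neighboring Z granules (-0.25), and smut-1 (-0.15). Of the 6 further polymerase genes and partners, 5 were lower, rrf-3 (-0.17) and the helicase gene drh-3 (-0.14) among them, and rrf-2 was higher (0.28). Of 9 Argonaute genes tested, 4 were not called. Of the others, hrde-1, the nuclear Argonaute of the germline (-0.32), ppw-2 (-0.29), wago-4 (-0.21) and wago-1 (-0.16) were lower, and sago-2 was higher (0.89). Averaged over strains under pos-1 RNAi, edgeR called 0 genes of each of these lists, where 2.55% of all genes were called. At an unadjusted p under 0.05 were 2 of the Mutator-associated genes, 1 of the polymerase genes and partners and 0 of the Argonaute genes.

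The strain transcriptomes to which reads were assigned were not used here, so assignment could be checked only through reads shared between genes, and reads of duplicated or diverged copies in a wild strain would not be seen this way. This limit holds for the higher mut-14 level in QX1211 as well. Salmon splits reads that match several transcripts, so a gene that shares no reads has a whole sum of estimated reads, here to within 0.005. For mut-2, mut-7, mut-15, mut-16, rde-2 and rde-8 the sums were whole in all 45 libraries. For ego-1 and rrf-1 they were whole in 1 library each, but the sum over both genes was whole in the other 44, so these neighbors share reads and a part of each level is uncertain. For mut-14 the sum was whole in 14 libraries. In the other 31 it became whole once added to the pseudogene WBGene00022587 (V:5471833-5473146, plus strand), which held 0 to 16.3 reads, at most 2.98% of the joint sum, and at most 3.31 reads in QX1211. With smut-1 mut-14 showed no sign of shared reads, as smut-1 had whole sums in all 45 libraries.

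Most of the genes were read from one main transcript. One transcript held all reads of ego-1, rrf-1 and rde-8 on average, 99.6% of the TPM of mut-7 and 97.6% of that of mut-15. For mut-16, transcript B0379.3b.1 held 79.1% and B0379.3a.2 20.9%. For rde-2, F21C3.4b.1 held 74.5% and F21C3.4a.1 25.5%, and F21C3.4a.1 ranged by strain from 16.8% in JU1088 to 32.9% in QX1211. The transcripts of mut-14, and the pair K04F10.6a.1 and K04F10.6a.2 of mut-2, differ by few bases in length. Their shares switched between nearly none and nearly all from library to library, so no share is read from them.

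The levels of some members followed each other across the 45 libraries, which share strains and treatments between them. Values are Pearson correlations of log2 normalized counts over 45 libraries, as a description. The partners mut-7 and rde-2 had 0.83, and 0.71 after strain means were removed. The polymerase neighbors ego-1 and rrf-1 had 0.53, and 0.63 without the 3 libraries that stood apart. For mut-16 and ego-1 the value was 0.66, and 0.65 without those libraries. The correlation of mut-14 with rde-2 was -0.55 over all libraries and 0.43 after strain means were removed, so its sign depended on the strain differences.

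Among 8172 other genes with a mean of at least 50 normalized counts, those most like mut-14 were pigv-1 (0.94), gpd-4 (0.94) and pgl-3 (0.92). Those most like mut-7 were F23A7.8 (0.92), the eggshell gene cpg-2 (0.90) and vps-33.2 (0.90), and those most like rde-2 were the meiotic axis gene htp-3 (0.91), the cyclin B gene cyb-2.2 (0.87) and gln-6 (0.87). For ego-1 they were the Raf kinase gene lin-45 (0.89), dcaf-1 (0.88) and H05L14.2 (0.87). For mut-2 they were Y106G6H.6 (0.80), com-1 (0.80) and C53D6.4 (0.78), for rrf-1 fnci-1 (0.73), smrd-1 (0.73) and mat-2 (0.72), for mut-15 nsf-1 (0.75), heri-1 (0.74) and Y54F10AR.1 (0.71), and for rde-8 Y55F3AM.9 (0.79), san-1 (0.79) and Y43E12A.3 (0.79). Without the 3 libraries that stood apart, those of rde-8 fell to places 25, 115 and 60 in its order, and those of mut-15 to places 3, 17 and 91. For mut-16 they were Y48G1C.8 (0.91), lag-1 (0.91) and disl-2 (0.89), but without those libraries these fell to places 25, 137 and 61 in its order, with 0.74, 0.65 and 0.70. After strain means were removed, those of mut-14 fell to places 222, 219 and 18. Those of mut-7 then fell to places 74, 111 and 88, and those of rde-2 to places 52, 761 and 206.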

How the data were processed

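RNA was taken from whole day 1 adult hermaphrodites, and libraries were directional, single-end and read over 75 bases. According to the methods, the authors trimmed reads with Trimmomatic (0.3.9), estimated transcript abundance with Salmon (1.4.0, while the submitters' notes also name 1.3.0) against a transcriptome rebuilt for each strain from its variants, and normalized with DESeq2 (1.32.0). The deposited files give estimated counts and TPM for each transcript in each library. The deposited table of normalized counts for all libraries is a signal scaled by the authors for library size and transcript length. It was used for levels, and its values are called normalized counts.

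Estimated counts were summed per gene, rounded and tested with edgeR (4.0.16), with TMM factors and offsets for average transcript length, by the quasi-likelihood F test on genes with at least 10 summed reads in the model. P-values were adjusted over all genes by the Benjamini-Hochberg method and called under 0.1. Within strains a fold change above 1.5 was also asked for. Standard errors were derived from the F statistic. Strain tests used the 15 libraries of 1 treatment, and the others all 45. Alternatives were DESeq2 (1.42.0), RLE factors, no length offset, 2 other filters, a replicate block, fits without the 3 libraries of one fragment length, each strain fitted alone, no fold threshold, and each library left out in turn. Those last fits kept the trended dispersion of the full fit. The script was tested on simulated data. Of 65173 transcripts 21 could not be matched to a gene.

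The 9 genes and the lists were chosen with earlier results of these data known. Named were the 9 genes, called genes of the lists, the 3 genes most correlated with each member, the RNAi targets, and transcripts with at least 5% of a gene's TPM. In the lists, wago-2 and wago-11 were not matched and wago-5 was not tested. P-values measure only the spread between pools of plates.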

Additional observations from a re-analysis of the deposited data

Results flagged for a closer look

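Under pos-1 RNAi, mut-14 lay on opposite sides of the control in a pair of strains. In CB4856 all 3 treated libraries (467, 445 and 510.1 normalized counts) were above all 3 controls (437, 375 and 433), with a log2 fold change of 0.20. In JU1088 all 3 treated libraries (364, 270.0 and 345) were below all 3 controls (391, 448 and 389), with -0.32, or -0.20 once the 3 libraries of one stated fragment length were left out. The difference between these strains was not tested by itself, and the test over all strains and treatments did not pass by edgeR (adjusted p = 0.236). Separation of 3 libraries from 3 can arise from the spread between pools of plates alone, here and for rde-2 below. The share of all genes so separated was not counted.

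The gene rde-2 did likewise under pos-1 RNAi in EG4348 and QX1211. Its treated libraries in EG4348 (569.7, 595 and 579.9 normalized counts) were above the controls (553, 521 and 559), with 0.10, and those in QX1211 (408, 414 and 405) were below the controls (478, 441 and 441), with -0.16, or -0.09 once the 3 libraries of one stated fragment length, QX1211 control replicate 1 among them, were left out. This difference was not tested by itself either, and the test over all strains and treatments gave an adjusted p of 0.587.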

How the results depend on the processing

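Without the fold threshold, 9 tests of par-1 RNAi and 1 of pos-1 RNAi within strains passed, against 0 and 0 with it. For the interaction, DESeq2 called 1 member and edgeR 0, and leaving out 1 library gave 0 to 1, with mut-14 called without JU1088 pos-1 RNAi replicate 1. Over all genes the interaction called 240, against 842 by DESeq2, 405 without length offsets and 111 without the 3 libraries of one fragment length. With 1 library left out, the strain tests called 4 to 6 members in the control, 3 to 6 under par-1 RNAi and 4 to 6 under pos-1 RNAi, and the strain pairs in the control 17 to 24. The other alternatives gave 4 to 9, 3 to 6, 4 to 5 and 19 to 27, and the 9 came without length offsets. Of 824 alternative values for 25 single-gene results, 808 kept their direction and side of the threshold, 9 lost and 7 gained a call, and 0 changed sign. The 25 left out the calls lost in 8 to 11 of 15 fits, such as the strain tests of mut-16 and rde-8. For within-strain results, many of the fits left out a library from outside the comparison. The share that held is therefore no measure for all calls. Replicate numbers did not pair the libraries in a way common to the strains. Same-numbered libraries of treated and control groups had correlations of -0.485 to 0.533, and 11 of 30 were over 0.1. In CB4856 they were all positive (0.0984 to 0.407), and in JU1088 they lay between -0.0421 and 0.0617. Of the 30 libraries, 13 correlated best with their own number. With each strain fitted alone, mut-14 and ego-1 under par-1 RNAi in JU1088 lost their calls (adjusted p = 0.136 and 0.139). With the replicate block the calls were 6 in the control, 3 under par-1 RNAi, 5 under pos-1 RNAi, 22 for the strain pairs and 5 for par-1 RNAi averaged over strains. The 3 genes most alike changed in most cases when strain means were removed.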
